A study of Mus musculus with 2 samples.

Results

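The cells described here were mouse bone marrow stromal cells that the authors' class column calls Osteoblast progenitor. Of 2847 cells that passed the authors' filter, 404 carried that class, and 400 of these also had a value on the authors' chondrocyte path, a pseudotime deposited with the table; the other 4 had none and were left out. Within each of the 2 samples these cells were ranked by that pseudotime and cut into 3 equal groups, here called early, middle and late. The groups held 48, 48 and 48 cells in Stroma1 and 85, 86 and 85 cells in Stroma2, so that 266 cells entered the late against early comparison. The groups were thus chosen by pseudotime, which was computed from the same RNA counts that are compared below. Every difference in expression between the groups is therefore a description of this ordering, and no value in the following paragraphs is a test of it.

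Cells were taken from C56BL/6 mice labelled as 8 to 16 weeks old. Femurs, tibiae and pelvic bones were crushed, the remaining bone was digested with collagenase and dispase for 45 min at 37 °C, and live cells without CD45, Ter119 and CD31, surface proteins of blood cells, red cell precursors and endothelium, were sorted and captured in droplets by inDrops. Stroma1 comprised 2 libraries (1.1 and 1.2) and Stroma2 comprised 3 (2.1, 2.2 and 2.3). The labels name no genotype or treatment and leave out how many animals each sample held, so the spread between them may be technical.

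Marrow stromal cells that carry the leptin receptor line the sinusoids and secrete CXCL12 and stem cell factor, which hold blood stem cells in the marrow. The same cells can give rise to osteoblasts and to marrow adipocytes. Osteoblast formation depends on the transcription factors RUNX2 and SP7. It proceeds from alkaline phosphatase and type I collagen to the late matrix proteins, of which osteocalcin is the best known. Pseudotime is a position given to each cell on a path through expression space, from less to more distinct states.

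The pseudotime ended at 0.761294 in the early group of Stroma1 and at 0.796431 in that of Stroma2. The last middle cell and the first late cell lay at 0.851088 and 0.854434 in Stroma1, and at 0.872839 and 0.875627 in Stroma2. Neighbouring cells on both sides of each limit thus had nearly the same value, and the groups are ranges on a continuum rather than types. The authors' osteoblast path ordered the same cells identically, with a Spearman correlation of 1 in the 132 cells of Stroma1 and the 219 cells of Stroma2 that had both values. The authors' potential score ordered all 400 cells in exactly the reverse direction, with a correlation of -1 in each sample. The pseudotimes of both skeletal paths thus followed the order of the potential score, and their agreement is not that of separate orderings. The authors' mean chondrocyte fate probability was 0.339 in the early group of both samples and 0.355 and 0.358 in the late group of Stroma1 and Stroma2. Over the same groups the mean osteoblast probability stayed between 0.337 and 0.339, and the mean adipocyte probability was 0.324 in both early groups against 0.307 and 0.303 in the late groups.

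Depth differed along the order. The early sums held 66876 and 107147 counts in Stroma1 and Stroma2, the middle sums 78139 and 123352, and the late sums 93596 and 152881. Median counts per cell were 1243.5 and 1075 early, and 1592 and 1475 late. Mitochondrial genes made up 7.08% and 6.21% of the early sums and 8.19% and 7.87% of the late sums. Each library contributed between 27.5% and 37.5% of its cells to the late group. In Stroma2, 35 of the cells shared 17 barcodes with another cell of the class, and for 11 of these barcodes every copy lay in the same group. Values below are CPM, a gene's share of the group's summed counts scaled to 1000000, Stroma1 first, and a log2 difference is late minus early. Because sums are used, fewer cells with a transcript and less transcript per cell cannot be told apart from a CPM alone. The part of depth and mitochondrial share in the differences below was not tested, except that cells thinned to 800 counts each are reported with the other alternatives.

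Markers of leptin receptor stroma and of bone-forming cells were both present. All 10 markers of leptin receptor stroma were detected in every group. Their summed level was 87445 and 82214 CPM early, 71501 and 64960.4 CPM in the middle group and 36048.5 and 26393.1 CPM late. Of 11 osteoblast markers, 8 were detected in each early group and all 11 in each late group, with summed levels of 7477 and 10294 CPM early against 19606 and 26923 CPM late. Of the 9 chondrocyte markers present in the table, at most 5 were detected in a group. Their summed level reached 171 and 216 CPM late, mostly from Sox9 and Comp, while Acan had 1 count and Col2a1 none in the late cells. Endothelial markers summed to at most 38.4 CPM in any group. Markers of neutrophils and macrophages lay between 40.5 and 177 CPM, and those of red cells between 42.7 and 224 CPM, with the highest red cell value in the early group of Stroma1. The B-cell marker pair Vpreb1 and Igll1, parts of the surrogate light chain, appeared mainly in the middle group of Stroma2, at 138 and 122 CPM, and was absent from both early groups and from the late group of Stroma1. The protease gene Mmp9, a gene of osteoclasts and neutrophils, was at 203 CPM in the late group of Stroma2 and 10.7 CPM in that of Stroma1. The part of such cells in the differences below was not tested.

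Over all genes, 2250 had enough counts to be fitted. Genes too low for the count filter in early or in late cells entered the fit through the other groups, where they were higher. Part of the difference of such genes was thus fixed by their selection. This limit is repeated below for some of these genes and holds for the others as well. An adjusted p under 0.05 in edgeR's quasi-likelihood fit, used here only to sort genes because the ordering used the same counts, was reached by 230 genes, or 10.2% of those fitted. The late group was higher for 102 of them (4.53%) and lower for 128 (5.69%), and nothing is read from these shares. All 230 genes had the same direction in both samples. The median log2 difference over all fitted genes was 0.04. The middle group lay between early and late for 94 of the 102 genes that were higher late and for 114 of the 128 that were lower. Shared direction and middle position are partly built in, because cells were ordered on these counts and genes sorted on this difference. Groups that did not overlap, with both samples higher late, were found for 27.7% of fitted genes, and with both samples lower late for 22.7%. Such a separation of 2 samples from 2 is therefore common in this table.

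**Figure D1:**
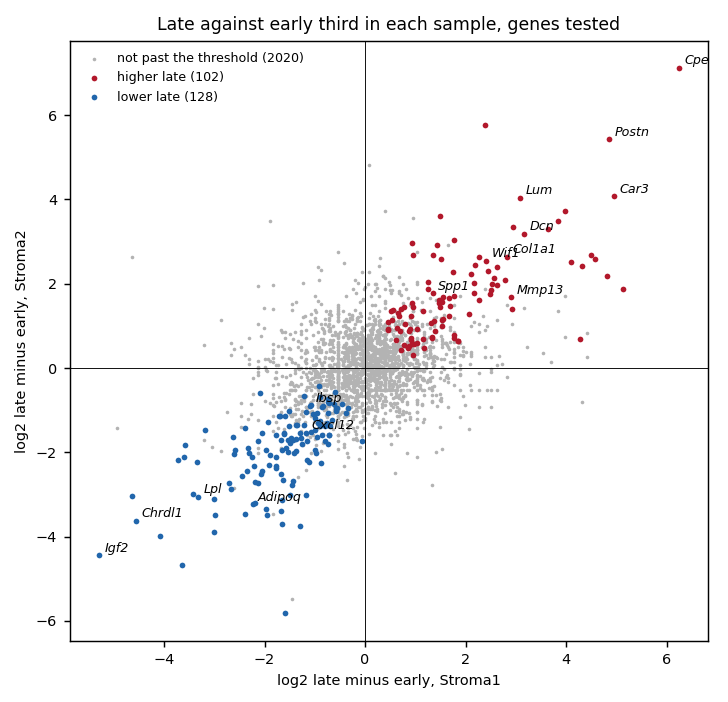
Each point is one of the 2250 fitted genes, with its log2 late minus early difference in Stroma1 on the horizontal axis and in Stroma2 on the vertical axis; red marks the 102 genes sorted as higher late, blue the 128 sorted as lower late and grey the others. Coloured genes fall in the upper right or the lower left quadrant, with Cpe and Postn at the upper right and Igf2 and Chrdl1 at the lower left.

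Some genes of the bone matrix and its mineralization were higher late. Of 29 such genes, 19 were fitted, 8 were sorted as higher late and 3 as lower. Over all fitted genes, 4.53% were sorted as higher and 5.69% as lower. These 2 shares are the background for each list below. The median log2 difference of the list was 0.56 against 0.04 over all fitted genes. Col1a1, the alpha 1 chain of type I collagen, was at 299 and 784 CPM in early cells, 499 and 884 CPM in middle cells and 2254 and 4978 CPM in late cells. Every late value exceeded every early and middle value, Stroma2 lay above Stroma1 in all 3 groups, and the fitted difference was 2.69 ± 0.21 (SE). The gene lies at chr11:94936224-94953042 in the GENCODE annotation of GRCm38. Its partner chain Col1a2 was already high in early cells, at 5832 and 6132 CPM, and reached 6154 and 9949 CPM late. The Col1a2 difference was 0.02 and 0.68 in the 2 samples, and it was not sorted as changed. The 2 chains assemble into one triple helix, and in both samples the difference was larger for Col1a1 than for Col1a2.

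Alpl, the tissue-nonspecific alkaline phosphatase that frees phosphate for mineral, was at 269 and 392 CPM early, 639.9 and 738 CPM in the middle and 1977 and 1701 CPM late. It climbed at each step in both samples, with a fitted difference of 2.39 ± 0.24 (SE). Spp1, the mineral-binding protein osteopontin, was at 2363 and 2884 CPM early and 6282 and 9975 CPM late. Slc20a2, a sodium-phosphate cotransporter, was at 29.9 and 140.0 CPM early and 235 and 576 CPM late. Tnc, the matrix protein tenascin C, was abundant throughout, at 5293 and 7028 CPM early and 9007 and 9655 CPM late, a difference of 0.56. All of these were higher late in both samples without overlap, but the size ranged from that of Tnc to that of Postn below.

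Bone sialoprotein did not follow. Ibsp, its gene, is usually counted among markers of bone-forming cells, and it was sorted as lower late. It was at 3245 and 3070.5 CPM in early cells, 2342 and 1589 CPM in middle cells and 1592 and 1688 CPM in late cells, a fitted difference of -0.97 ± 0.18 (SE). In Stroma2 the middle and late values were close, with the late value slightly above the middle one. In the MSC class it was at 5629 and 5962 CPM and in the Pre-osteoblast/chondrocyte class at 4817 and 4393 CPM, so its lowest level along the path lay within the Osteoblast progenitor cells. Bgn, the proteoglycan biglycan, was also lower late, at 5562 and 4984 CPM early and 3483 and 2898 CPM late. Loxl2, a collagen cross-linking oxidase, was at 224 and 243 CPM early and 118 and 58.9 CPM late. Sparc (osteonectin), Serpinh1 (a collagen chaperone) and Cdh11 (osteoblast cadherin) had fitted differences of -0.07, -0.04 and -0.00, and none was sorted as changed.

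Bglap, which encodes osteocalcin, marks the mature end of the lineage. It had no count in the early or middle groups and 53.4 and 19.6 CPM late, from 5 and 3 counts. Only 3 of 48 and 2 of 85 late cells of Stroma1 and Stroma2 held a count, and against a floor of 3 counts over both samples the late level was at least 1.84-fold higher. The gene was too low to be fitted. At this depth the late cells were therefore largely without detectable Bglap transcript. Bglap2, a second osteocalcin gene, also had no count in the early or middle groups. It was at 42.7 and 45.8 CPM late, on 11 counts in all. The number of late cells with a Bglap2 count was not read.

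A few secreted and metabolic proteins had almost no transcript in the early cells. Cpe, carboxypeptidase E, a prohormone-processing enzyme (chr8:64592542-64693054), had no count in early cells, 76.8 and 97.3 CPM in middle cells and 588 and 654 CPM in late cells. It was detected in 0 of 48 and 0 of 85 early cells and in 17 of 48 and 36 of 85 late cells, and against a floor of 3 counts over both samples it was at least 35.6-fold higher late. Postn, periostin, a matrix protein of periosteum and bone surfaces, was at 15.0 and 9.33 CPM early and 673 and 608 CPM late, and 2 against 156 counts gave a ratio of 53.8 with a counting interval of 14.6 to 448. A count of it was held by 17 of 48 and 26 of 85 late cells, so most late cells showed none. Car3, carbonic anhydrase 3, was at 0 and 9.33 CPM early and 235 and 235 CPM late, a ratio of 39.97 with an interval of 6.90 to 1606 from 1 early count. These 3 genes passed the filter on low counts through the later groups alone, so a large difference was built into their selection.

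Lum, Dcn and Omd encode small leucine-rich proteoglycans, which coat collagen fibrils and set their spacing. Lum, lumican, was at 89.7 and 65.3 CPM early, 102 and 73.0 CPM in the middle and 855 and 1158 CPM late. Dcn, decorin, was at 194 and 280.0 CPM early, 358 and 373 CPM in the middle and 1891 and 2616 CPM late. Omd, osteomodulin, a bone-enriched member, was at 44.9 and 56.0 CPM early and 417 and 621 CPM late. The 3 fitted differences were 3.71, 3.19 and 3.30, and no early value reached a late one. In early cells Lum and Omd were under the count filter and passed it through the later groups. Part of their differences is therefore fixed by their selection. Their relative Ogn, osteoglycin, was at 419 and 597 CPM early and 459 and 406 CPM late and was not sorted, and biglycan was lower late as given above.

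Fn1 and Vcan were matrix genes named by size, and Col3a1 was named after its value was seen. Fn1, fibronectin, on which collagen fibrils are laid, was at 74.8 and 121 CPM early, 294 and 592 CPM in the middle and 1058 and 1256 CPM late. Vcan, the large proteoglycan versican, was at 59.8 and 37.3 CPM early and 192 and 517 CPM late, with the late value of Stroma2 well above that of Stroma1. Vcan passed the count filter through the later groups, so part of its difference is fixed by its selection. Col3a1, the fibrillar collagen of soft tissue and early repair matrix, was at 314 and 392 CPM early, 307 and 276 CPM in the middle and 1816 and 1982 CPM late. In the list of collagens and collagen-processing genes, which does not hold the type I chains, it alone of 24 fitted genes was sorted as higher late. The basement membrane chains Col4a1 and Col4a2 and the cross-linking enzyme Lox were lower, with differences of -1.31, -1.39 and -2.10. The median of that list was -0.07.

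Of 13 fitted matrix proteases and inhibitors, 5 were sorted as higher late, none as lower and 8 as neither, with a median of 0.33. The shares over all fitted genes were 4.53% higher and 5.69% lower. Mmp13, the collagenase of bone and growth plate, was at 807 and 2305 CPM early, 3340.2 and 3932 CPM in the middle and 6336 and 7503 CPM late. The early values of the samples differed from each other more than the late ones. Mmp2, gelatinase A, was at 135 and 112 CPM early and 630.4 and 549 CPM late. Mmp14, the membrane protease that activates it, was at 105 and 205 CPM early and 256 and 543 CPM late, and the inhibitor Timp3 at 105 and 196 CPM early and 374 and 563 CPM late. Adamts5, an aggrecanase, was at 135 and 159 CPM early and 363 and 347 CPM late. The inhibitor Timp2 was not sorted, at 927 and 887 CPM early and 940.2 and 857 CPM late.

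The transcription factors of the osteoblast lineage were measured on few counts. None of 7 fitted factors was sorted as changed, with differences from 0.15 to 2.29 and a median of 0.96. Runx2, the master regulator of the lineage, was at 254 and 495 CPM early, 154 and 259 CPM in the middle and 427 and 464 CPM late, and the 2 samples differed in direction (0.67 and -0.11 on the log2 scale). Sp7, osterix, was at 59.8 and 177 CPM early and 278 and 235 CPM late. Dlx5 was at 74.8 and 65.3 CPM early and 160.3 and 177 CPM late. Their counts were low, with 4 and 19 counts of Sp7 in the early sums, so a change of the size seen for Sp7 was not resolved. Pth1r, the parathyroid hormone receptor, was at 179 and 187 CPM early and 342 and 294 CPM late and was not sorted either.

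RUNX2 binds the sequence TGTGGT, and promoter stretches of 3 bone genes of the fixed list that hold it are shown because their genes were higher late or, for Bglap, seen in late cells alone. Each runs 5′ to 3′ on the gene's strand from 150 to 51 bases before the RefSeq start (build GRCm38.p6), with the motif in capitals as it reads on that strand, which in each is the reverse complement. They lie at chr9:7272364-7272463 on the plus strand, chr5:104434961-104435060 on the plus strand at the first of 2 annotated starts, and chr3:88384517-88384616 on the minus strand.
Mmp13: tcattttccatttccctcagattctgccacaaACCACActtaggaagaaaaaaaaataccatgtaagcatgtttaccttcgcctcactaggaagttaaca
Spp1: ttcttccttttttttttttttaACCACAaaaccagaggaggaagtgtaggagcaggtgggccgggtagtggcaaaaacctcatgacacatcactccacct
Bglap: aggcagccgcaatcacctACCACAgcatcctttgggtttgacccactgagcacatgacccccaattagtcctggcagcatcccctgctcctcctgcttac
The motif begins 118, 128 and 132 bases before the start of Mmp13, Spp1 and Bglap. In the window from 250 bases before to 50 after the start, TGTGGT on either strand was present in 14 of 74 genes sorted as higher late (18.9%), in 12 of 90 sorted as lower (13.3%), in 13.1% of 1732 fitted genes and in 18.9% of all 27025 genes; only the 74 of 102, 90 of 128 and 1732 of 2250 genes with a promoter entry were read. The AP-1 motif TGANTCA was present in 10.8%, 6.67%, 5.89% and 8.97% of the same sets. None of the 8 promoters matched among the 14 largest increases held either motif. Alpl, Wif1 and Limch1, also of the fixed list and higher late, held no TGTGGT match at any start. Runx2 and Foxc1 of that list, which were not sorted, did hold it. These are matches of letters in one window and say nothing of binding.

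On the other side of the order, most fitted genes of the adipocyte-primed stromal list were lower late. Of 20 fitted genes of this list, 15 were sorted as lower late and none as higher, with a median log2 difference of -1.57. The shares over all fitted genes were 5.69% lower and 4.53% higher. Lpl, lipoprotein lipase, which frees fatty acids from circulating fat (chr8:68880491-68907448), was at 6938 and 5077 CPM early, 4313 and 3299.5 CPM in the middle and 716 and 615 CPM late. Adipoq, the adipokine adiponectin, was at 2527 and 1848 CPM early, 1728 and 1711 CPM in the middle and 556 and 196 CPM late. A count of Adipoq was held by 38 of 48 and 63 of 85 early cells and by 12 of 48 and 9 of 85 late cells, so the share of cells with a count fell together with the level. Cebpa, a transcription factor of fat cell formation, was at 1047 and 812 CPM early and 224 and 189.7 CPM late. Pparg, its partner, was at 119.6 and 140.0 CPM early and 42.7 and 0 CPM late and was not sorted as changed, with 8 and 15 counts early and 4 and 0 late.

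Other genes of the adipocyte-primed list were lower late by differing amounts. Chrdl1, a secreted BMP antagonist, was at 1570.1 and 915 CPM early, 512 and 446 CPM in the middle and 64.1 and 72.0 CPM late, a fitted difference of -4.10 ± 0.33 (SE). Chrdl1 passed the count filter through the earlier groups, so part of its difference is fixed by its selection. Hp, haptoglobin, was at 4740.1 and 4545 CPM early and 1079 and 699.9 CPM late. Apoe, apolipoprotein E, was at 6310.2 and 6234 CPM early and 3419 and 2558 CPM late, and the antioxidant enzyme gene Gpx3 at 5562 and 5852 CPM early and 3205 and 3127 CPM late. Ebf3, a factor that keeps marrow stroma open to blood cells, was at 1092 and 1036 CPM early and 684 and 497 CPM late, a difference of -0.92. Foxc1, another factor of the niche, was at 807 and 672 CPM early and 534 and 517 CPM late and was not sorted. Cebpb and Cebpd, the early-acting relatives of Cebpa, had positive differences of 0.59 and 0.49 that were not sorted, so the family did not move as one.

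Niche factors were often lower as well. Of 17 fitted, 11 were sorted as lower and 1, Spp1, as higher, with a median of -1.36. The shares over all fitted genes were 5.69% lower and 4.53% higher. Cxcl12, the chemokine that retains blood stem cells, was at 65883 and 63390.0 CPM early, 55644 and 51868 CPM in the middle and 30247 and 22194 CPM late. All late values lay below all early and middle values. The gene lies at chr6:117168535-117181367. Kitl, stem cell factor, was at 1032 and 971 CPM early, 1037 and 965 CPM in the middle and 534 and 353 CPM late, so its level was held until after the middle group. Lepr, the leptin receptor, was at 1540.2 and 1493 CPM early and 619.7 and 386 CPM late, and its middle values of 1024 and 908 CPM were already below the early ones. Vcam1, a cell adhesion molecule, was at 2527 and 2725 CPM early and 908 and 693 CPM late. The macrophage growth factors Csf1 and Il34, which share a receptor, were both lower, at 1077 and 943 against 524 and 510.2 CPM and at 269 and 224 against 21.4 and 26.2 CPM. Il34 passed the count filter through the earlier groups, so part of its difference is fixed by its selection. Gas6, Angpt1, Vegfc and Esm1, secreted factors of vessels and blood cells, had differences of -1.58, -2.34, -1.37 and -2.26. Igf1 and Tnfsf11, the osteoclast factor RANKL, were not sorted, with differences of 0.43 and 0.84.

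Of 19 fitted genes of the BMP and TGF-beta pathway, 7 were sorted as lower late, none as higher and 12 as neither, with a median of -0.49. The shares over all fitted genes were 5.69% lower and 4.53% higher. The ligand Bmp4 was at 389 and 504 CPM early and 85.5 and 52.3 CPM late. The extracellular antagonists Chrdl1 (above), Grem1 and Fst were lower too, Grem1 at 434 and 439 CPM early and 278 and 170.1 CPM late, and Fst, follistatin, at 449 and 317 CPM early and 85.5 and 26.2 CPM late. Ltbp2, a matrix protein of the latent TGF-beta binding family, was at 778 and 709 CPM early and 96.2 and 45.8 CPM late. In late cells Bmp4, Chrdl1, Fst and Ltbp2 were all under the count filter, which they passed through the earlier groups. Part of their differences is therefore fixed by their selection. Tgfbr3, the co-receptor betaglycan, and Fstl1 had differences of -1.25 and -0.76. The target genes Id2, Id3 and Id4 had differences of 0.52, 0.19 and -0.29, none of them sorted.

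Wnt pathway genes split by member. Of 11 fitted, 2 were sorted as higher and 2 as lower, with a median of -0.51. The shares over all fitted genes were 4.53% higher and 5.69% lower. Wif1, a secreted Wnt inhibitor, was at 763 and 793 CPM early, 1446 and 2181 CPM in the middle and 4252 and 4716 CPM late, a fitted difference of 2.50 ± 0.19 (SE), and the samples agreed closely. It was detected in 20 of 48 and 41 of 85 early cells and 46 of 48 and 82 of 85 late cells, so nearly every late cell held a count. Sfrp4 and Sfrp1, inhibitors of another family, went the other way, Sfrp4 at 538 and 597 CPM early and 246 and 72.0 CPM late, and Sfrp1 at 269 and 299 CPM early and 107 and 118 CPM late. Ctnnb1, which encodes beta-catenin, was at 583 and 439 CPM early and 876 and 1151 CPM late. The inhibitor repertoire thus differed between early and late cells rather than being uniformly higher or lower.

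Part of the IGF system was lower late. Of 14 fitted IGF and FGF genes, 5 were sorted as lower and none as higher, with a median of -0.91. The shares over all fitted genes were 5.69% lower and 4.53% higher. Igf2, insulin-like growth factor 2, had 13 and 22 counts in early cells and 0 and 1 in late cells, a ratio of 50.8 in favour of early cells with a counting interval of 8.54 to 2062. It passed the filter on low counts through the earlier groups alone, so a large difference was built into its selection. The binding proteins Igfbp4, Igfbp5 and Igfbp7 were lower from high levels, Igfbp4 at 17181 and 16417 CPM early and 10567 and 6731 CPM late, Igfbp5 at 7118 and 6477 CPM early and 4007 and 4088 CPM late, and Igfbp7 at 5817 and 5824 CPM early and 2874 and 2074 CPM late. Igfbp3 was at 149.5 and 224 CPM early and 10.7 and 45.8 CPM late, and it too passed the filter through the earlier groups. The receptors Fgfr1, Fgfr2 and Fgfr3 had differences of 1.08, -0.35 and 1.25, none of them sorted.

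The remaining genes named for the size of their loss were mostly secreted proteins. Serpina3n, a serine protease inhibitor, had 33 counts in early and 2 in late cells, a ratio of 23.9 with an interval of 6.12 to 206, and it too passed the filter through the earlier groups alone. Podn, the proteoglycan podocan, was at 194 and 177 CPM early and 21.4 and 13.1 CPM late. C2, complement component 2, was at 449 and 355 CPM early and 53.4 and 39.2 CPM late, and Rarres2, the chemoattractant chemerin, at 613 and 541 CPM early and 96.2 and 72.0 CPM late. Aldh1a2, which makes retinoic acid, was at 299 and 121 CPM early and 21.4 and 32.7 CPM late, with early samples that differed more than the late ones. Itih5 and Rgcc had differences of -3.01 and -2.78, and the first had 6 late counts in Stroma1 and 0 in Stroma2. Like Serpina3n, the other genes of this paragraph were under the count filter in late cells and passed it through the earlier groups. Part of their differences is therefore fixed by their selection.

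**Figure D2:**
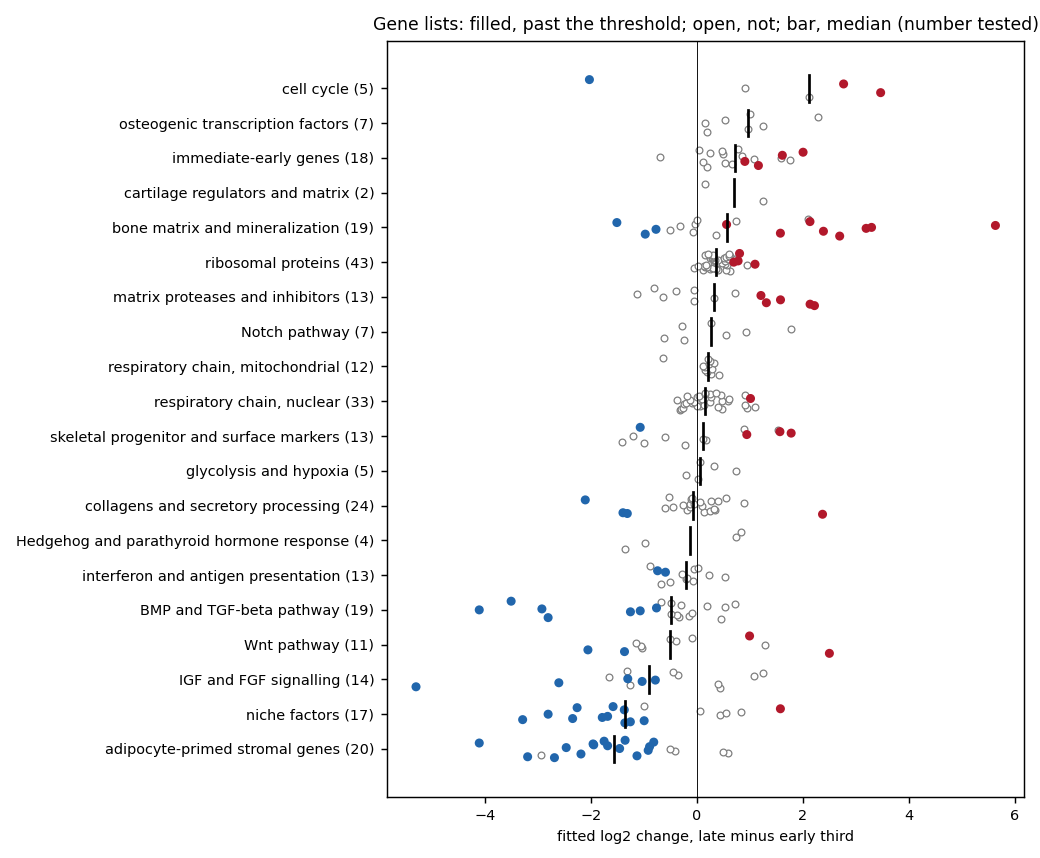
Each row is a gene list, with the number of fitted members in parentheses, and the horizontal axis is the fitted log2 late minus early difference; red and blue points were sorted as higher and lower late, open points were not sorted, and the bar is the list median. The adipocyte-primed list (median -1.57) and the niche list (median -1.36) lie mostly left of 0, and the bone matrix list spans from -1.51 to 5.63.

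Cartilage genes gave little signal. Of 27 cartilage genes, 25 were in the table, 17 had a count and only 2 were fitted, neither sorted. Sox9, the chondrocyte master factor, was at 29.9 and 56.0 CPM early and 32.1 and 98.1 CPM late and was too low to be fitted. Acan, the aggrecan gene, had 1 count and Col2a1, type II collagen, none in the late cells, and neither was above the floor of 3 counts in any group. Comp, a matrix protein of cartilage and tendon, was at 0 and 37.3 CPM early and 128 and 78.5 CPM late, and Col11a1, a minor fibrillar collagen of cartilage and bone, at 29.9 and 18.7 CPM early and 74.8 and 111 CPM late. Both were higher late in both samples, on 4 early and 24 late counts each. The pseudotime is named for the chondrocyte path, yet no gene on this list that encodes cartilage matrix had enough counts at this depth to enter the fit.

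Housekeeping groups and several other lists gave few sorted genes, though some summed levels were higher late. For every list of this paragraph, the shares over all fitted genes were 4.53% higher and 5.69% lower. Of 43 fitted ribosomal protein genes, 4 were sorted as higher and none as lower, with a median of 0.37. The ribosomal list summed to 30579 and 28438 CPM early and 39414 and 40345 CPM late. Many of these genes have near-identical copies whose reads can be miscounted. The 33 nuclear and 12 mitochondrial genes of the respiratory chain had medians of 0.15 and 0.22, with 1 gene sorted, Cox7c. The mitochondrial list summed to 70803 and 62111 CPM early and 81927 and 78695 CPM late. The 5 fitted glycolysis and hypoxia genes had a median of 0.07, and none was sorted. The 7 Notch genes and the 4 Hedgehog and parathyroid hormone genes gave no sorted gene, with medians of 0.26 and -0.12. Of 13 interferon and antigen presentation genes, H2-K1 and H2-D1, which encode closely similar class I molecules, were sorted as lower. Of 18 immediate-early genes, which respond to stimulation and to tissue digestion, 4 were sorted as higher (Klf4, Btg1, Fosb and Egr1) and none as lower, with a median of 0.72. Fos was at 1510.3 and 2371 CPM early and 1869.7 and 2682 CPM late. The median counts per cell and the mitochondrial share given above moved in the same direction as this list, and their part in it was not tested.

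Cell cycle and surface genes gave a few sorted members. Of 21 cell cycle genes only 5 were fitted. Cdkn1a, the cell cycle inhibitor p21, was at 0 and 56.0 CPM early and 267 and 222 CPM late, whereas Cdkn1c, the inhibitor p57, had a difference of -2.02. Stmn1, a microtubule-destabilizing protein, had one of 3.47. Cdkn1a and Stmn1 passed the count filter through the later groups, so part of their differences is fixed by their selection. Among 13 fitted skeletal progenitor and surface markers, Limch1, a cytoskeletal protein, was at 643 and 625 CPM early and 1165 and 1321 CPM late. The potassium channel gene Kcnk2 was at 105 and 149 CPM early and 395 and 510.2 CPM late, and Ncam1, neural cell adhesion molecule, at 105 and 196 CPM early and 331 and 595 CPM late. Pdgfra, a stromal growth factor receptor, was at 359 and 457 CPM early and 171 and 242 CPM late and was not sorted. Another 4 genes were named by the size rule. Vldlr, a lipoprotein receptor, had 0 and 3 counts early against 17 and 30 late, a ratio of 10.8 with an interval of 3.48 to 54.2. Slc35g1, Fign and Spata13 had differences of 3.26, 3.10 and 2.60. All 4 had at most 6 early counts in a sample and passed the filter through the later groups, so part of these differences is fixed by their selection.

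The genes that were higher late did not all rise at the same place. When the ranked cells of each sample were cut into 6 equal bins, one set climbed from the middle of the order. Wif1 was at 461 and 698 CPM in the first bin, 1932 and 2906 CPM in the fourth and 5211 and 4842 CPM in the fifth, with no further gain in the last bin (3539 and 4578 CPM). Kcnk2 was at 61.4 and 75.5 CPM in the first bin and 469 and 473 CPM in the fourth. Alpl was at 123 and 321 CPM in the first bin and 911 and 998 CPM in the fourth, and reached 2366 and 1874 CPM in the last.

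Some fibrous matrix genes, picked after their values were seen, were concentrated in the last bin. Col1a1 was at 497 and 1033 CPM in the fourth bin, 702 and 1160.0 CPM in the fifth and 3409 and 8489.9 CPM in the last. Col3a1 was at 351 and 647 CPM in the fifth bin and 2906 and 3308 CPM in the last. Postn was at 75.2 and 229 and Lum at 200.4 and 459 CPM in the fifth bin, against 1118 and 956 and 1341 and 1811 CPM in the last. In both samples the last bin was the highest of the 6 for each of these 4 genes. Adipoq showed their mirror image, at 1739 and 1716 CPM in the fourth bin, 1228 and 391 CPM in the fifth and 55.9 and 12.6 CPM in the last. Other matrix genes rose earlier. Fn1 was at 331 and 368 CPM in the fourth bin, 601 and 877 CPM in the fifth and 1397 and 1623 CPM in the last. Omd was at 276 and 567 CPM in the fifth bin and 522 and 679 CPM in the last. Cxcl12 was at 65571 and 66362 CPM in the first bin, 47079 and 34504 CPM in the fifth and 17733 and 11018 CPM in the last.

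**Figure D3:**
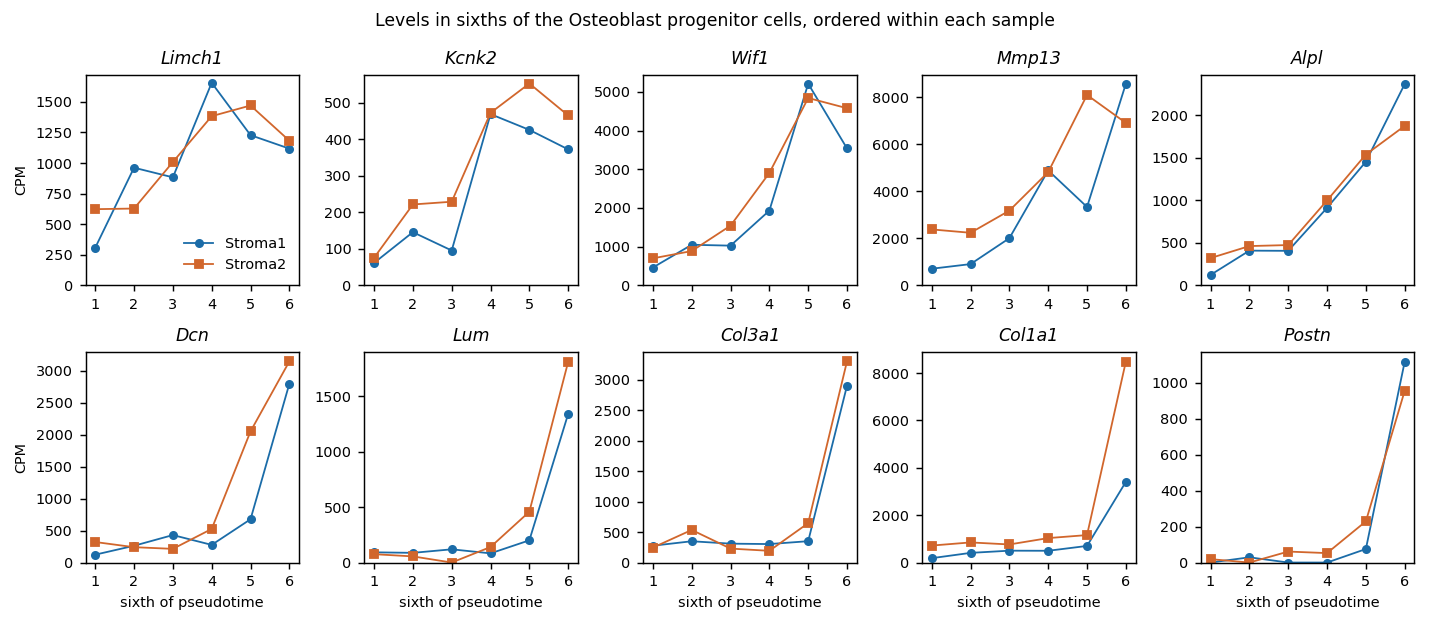
Each panel shows one gene, with the 6 equal bins of pseudotime-ranked cells on the horizontal axis and its level in CPM on the vertical axis, circles for Stroma1 and squares for Stroma2. Limch1, Kcnk2, Wif1, Mmp13 and Alpl in the upper row had gained by the fourth bin, whereas Lum, Col3a1, Col1a1 and Postn in the lower row were highest in the last bin of both samples.

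With the last of these bins left out, a comparison added after the data were seen, 51 genes were sorted as higher late and 77 as lower among 1613 fitted, and 43 and 73 of these were among the 102 and 128. Without it the Col1a1 difference was 0.72 ± 0.28 (SE) and no longer sorted. Cdkn1a and Itih5 were not sorted either, but at differences of 2.18 and -1.91, and Ebf3 at -0.32. This comparison has fewer late cells as well as less distinct ones.

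Levels in the neighbouring classes, as means of the 2 samples, were set beside those of the late cells. Of the 102 genes sorted as higher late, 86 were higher in the Pre-osteoblast/chondrocyte class (25 and 66 cells) than in early cells, but only 44 were higher there than in late cells. The remaining 58 were lower there than in late cells. Dcn was at 471 and 735 CPM in the Pre-osteoblast/chondrocyte class, Omd at 0 and 66.8 CPM, Wif1 at 1666 and 1904 CPM, Alpl at 652 and 760.1 CPM and Col3a1 at 72.4 and 217 CPM, each below both of its late values given above. Col1a1 at 18364 and 15310.0 CPM, Spp1 at 74070.0 and 78255 CPM and Mmp13 at 22819 and 22911 CPM were above both late values. Cpe, at 616 and 568 CPM, lay at or near its late level. Of the 128 genes sorted as lower late, 108 were lower still in the Pre-osteoblast/chondrocyte class, among them Lpl at 18.1 and 16.7 CPM and Cxcl12 at 3586 and 2999 CPM. All 128 were higher in the MSC class (502 and 815 cells) than in late cells, and 70 were higher there than in early cells. The genes were picked for a high or low late level in these same sums, so part of these counts is fixed by that choice. The matching counts over all fitted genes were not computed. The classes are the authors', drawn from the same counts, and these positions are a description.

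**Figure D4:**
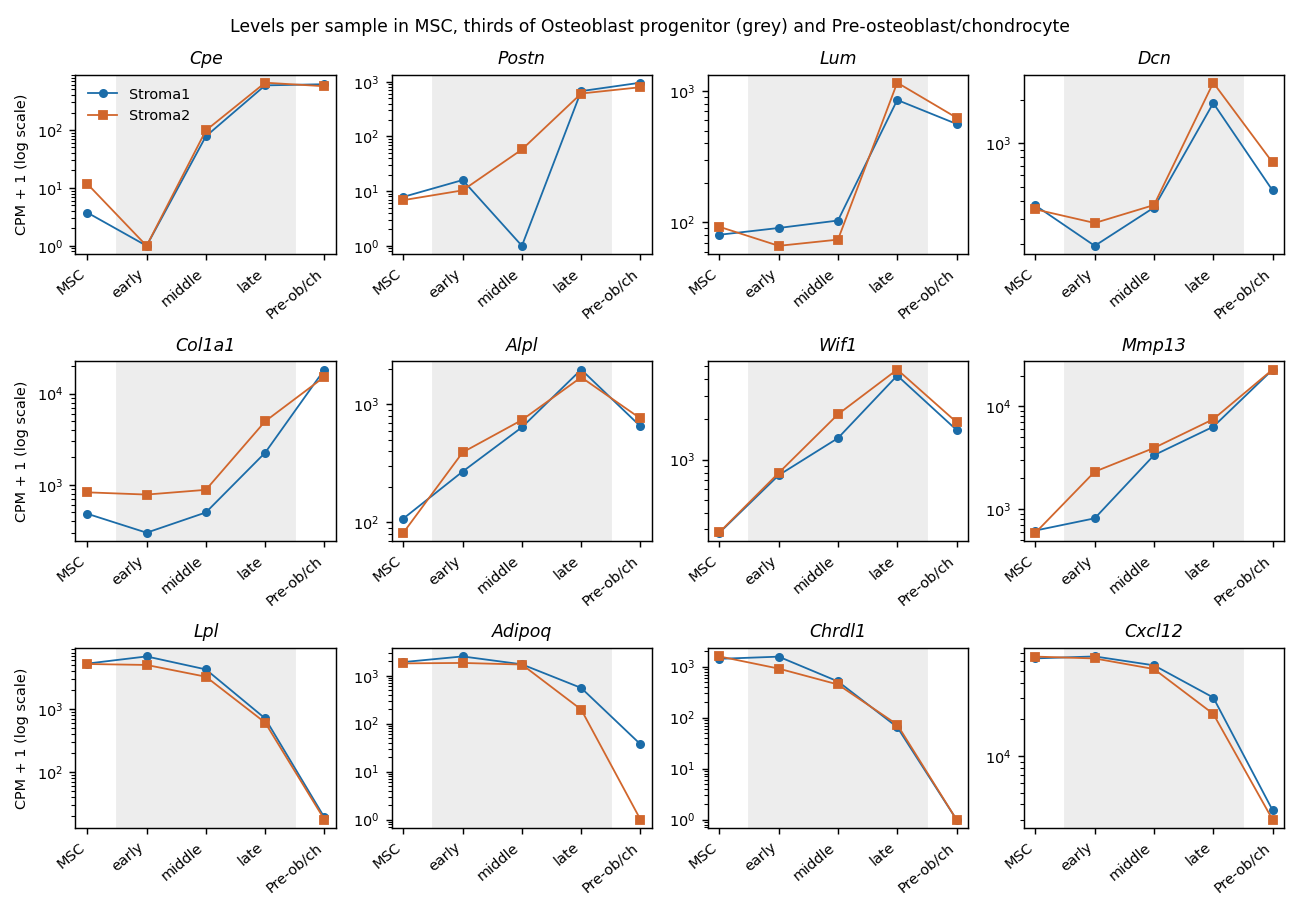
Each panel shows one gene, with its level (CPM plus 1, log scale) in the MSC class, in the early, middle and late groups (grey) and in the Pre-osteoblast/chondrocyte class (Pre-ob/ch), circles for Stroma1 and squares for Stroma2. Lum, Dcn, Alpl and Wif1 peaked in the late group of both samples, Col1a1 and Mmp13 were highest in the Pre-osteoblast/chondrocyte class, and Lpl, Adipoq, Chrdl1 and Cxcl12 were lower from early to late and lowest in that class.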

How the data were processed

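RNA was counted in single cells of 2 samples of mouse marrow stroma. The authors deposited whole-number counts per gene and barcode; the submitters' processing notes name Bowtie 1.1.1 and GRCm38, while for the counting tool and any use of molecular identifiers nothing was stated in what was read here (not given in the sources used). Fractions, per the file headers, are a barcode's mitochondrial share, 3 fate probabilities and pseudotimes, and the deposited potential is a score with no stated unit. Counts were summed per sample and group of cells, since cells are not replicates.

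The 6 sums (early, middle and late in each sample) were fitted with edgeR 4.0.16 in R 4.3.3 (quasi-likelihood, TMM scaling, sample as a block, genes with low counts removed at a minimum of 10), and p-values were adjusted over all 2250 fitted genes by Benjamini-Hochberg. The sums left 2 residual degrees of freedom. Because the ordering used the same counts, the adjusted p of 0.05 only sorts genes. The fit was tested on simulated data. CPM divides by the group's total, and RefSeq promoters of 27025 genes were searched.

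Genes were named by rule: the 14 largest fitted differences in each direction among sorted genes with the same sign in both samples and a mean of at least 100.0 CPM, leaving out mitochondrial, Gm-numbered and Rik symbols (2 genes), plus a set of niche, fat and skeletal genes named in any case. Other members of the lists were named after their values were seen. The members and lists were chosen with earlier results of these data known. Floors of 3 counts and 95% intervals cover counting error only. Doublets were not called here. Alternatives included DESeq2 1.42.0, other cuts of the order, other scalings and filters, sums per library, 1 copy per barcode and cells thinned to 800 counts.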

Additional observations from a re-analysis of the deposited data

How the results depend on the processing

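The main counts of sorted genes were 102 higher and 128 lower late. No sorted gene among those named changed direction under the alternatives run. DESeq2 gave 32 higher and 74 lower, all of them among the 102 and 128, with no adjusted p for 1047 genes. Cells thinned to 800 counts, which kept 323 of 400 cells and 819 fitted genes, gave 37 and 78. Leaving out the last of the 6 bins gave 51 and 77. The other alternatives gave between 72 and 116 higher and between 112 and 139 lower. Without the sample block, that is with no pairing of the groups within a sample, 98 were higher and 128 lower, 95 and 126 of them the same genes. With 1 sample left out, or with cells weighted equally, only differences were computed, without a test. Of 47 named genes, 7 moved by more than the SD between samples without Stroma1, 10 without Stroma2 and 18 with equal weights. That SD was taken from the same 2 sample differences and widens as they disagree. A move past it was thus unlikely from the outset when 1 sample was left out. The 7 and 10 are therefore no measure of stability. Most of the 18 were smaller in size. The equal-weight difference was computed after adding 10 CPM to each level. This addition by itself makes differences smaller for genes with a low level in early or late cells. The part of cell weighting in these smaller sizes was not tested. Without Stroma2 the Cdkn1a difference was 5.13, against 1.88 without Stroma1. Early cells of Stroma1 held no count of Cdkn1a, so the size of 5.13 was set by the 0.5 counts added to each sum. Among named genes, Itih5 was lost when the order was cut into 4 groups and when both samples were ranked together (-2.56 and -2.43), Rgcc when thinned (-1.69), Aldh1a2 when it was cut into 2 (-0.93) and Ebf3 with DESeq2 (-0.93), while Pparg was sorted under 3 alternatives and Pdgfra under 6. The cause was not tested. Most cartilage genes and Bglap had too few counts in every group to be fitted.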

Other observations

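Of the 230 sorted genes, 154 belonged to no list, and the groups in this paragraph were picked after their values were seen, so they carry no test and no count over a family. Some complement genes were lower late. C1s1 was at 538 and 467 CPM early and 107 and 85.0 CPM late in Stroma1 and Stroma2, C4b at 179 and 205 CPM early and 10.7 and 45.8 CPM late, and the complement inhibitor gene Serping1 at 5562 and 5357 CPM early and 1944 and 1446 CPM late. The central complement gene C3 was fitted and not sorted. Nid1, the basement membrane protein nidogen 1, was at 239 and 187 CPM early and 53.4 and 26.2 CPM late. Lamc1, laminin gamma 1, was at 449 and 467 CPM early and 171 and 144 CPM late, while the laminin genes Lama4, Lamb1 and Lamb2 were fitted and not sorted. In late cells C4b and Nid1 were under the count filter, which they passed through the earlier groups. Part of their differences is therefore fixed by their selection.

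Vdr, the vitamin D receptor, was at 74.8 and 37.3 CPM early and 160.3 and 268 CPM late. It passed the count filter through the later groups, so part of its difference is fixed by its selection. Clec11a, which encodes a secreted bone growth factor of marrow stroma, was at 89.7 and 187 CPM early and 481 and 595 CPM late. The heat shock genes Hsp90aa1 and Dnajb1 had log2 differences of 1.61 and 2.03. Slc5a3 and Mrps6, with differences of -2.73 and -2.67, overlap in the genome, and their reads may not be separable. Runx1, a relative of Runx2, was at 404 and 681 CPM early and 224 and 288 CPM late, a difference of -1.13, beside the 0.20 of Runx2.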
